A study of Drosophila melanogaster with 2 samples.

Results

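The genes described are 33 synaptic and ion channel genes of neurons, taken by name from the fly gene models and all found there, of 13945 protein-coding genes. Chromatin immunoprecipitation followed by sequencing (ChIP-seq) had been done with an anti-GFP antibody on whole *Drosophila melanogaster* prepupae, animals at the onset of metamorphosis, with males and females pooled. The flies were a transgenic line stably expressing CG8216, also named spab, with GFP at its C terminus. There were 2 biological replicates of 1 group and no other genotype, treatment or stage, and the age in the labels is 24 days, where hours may be meant for a prepupa. Expression was not measured, so the label of these genes as neuronal could not be checked in these animals. No source used here gives the promoter that drives the fusion or says whether the untagged gene is intact.

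Neurons communicate when a calcium signal makes vesicles fuse with the presynaptic membrane, through SNARE proteins, calcium sensors and priming factors gathered at the active zone. Transmitter is made and loaded into vesicles by cell-type-specific enzymes and transporters, and the excitability that drives release is set by voltage-gated sodium, calcium and potassium channels. Such genes are active in differentiated neurons and mostly silent in other tissues, and in the fly many are long, with large introns.

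Sequence is shown first for 5 of the 9 places in or near the members that were in the authors' reproducible list of peaks. Each line gives 200 bp of the plus strand of dm6 (the RefSeq Release 6 genome) centred on a summit, the position of highest signal in a peak, and none of these windows overlaps an annotated exon. The elav and Syn windows hold the strongest summits at any member. Those of fne, Shaw and dlg1 lie in introns under weaker peaks, and of the 5 only the elav summit is near enough to a start site to count as bound below. Capitals mark the only match to CAGTGTA in them, which in fne lies on the minus strand.
elav X:523400-523599: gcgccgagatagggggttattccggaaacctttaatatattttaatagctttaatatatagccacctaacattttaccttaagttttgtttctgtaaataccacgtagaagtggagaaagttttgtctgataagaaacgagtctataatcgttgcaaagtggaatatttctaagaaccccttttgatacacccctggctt
Syn 3R:10213559-10213758: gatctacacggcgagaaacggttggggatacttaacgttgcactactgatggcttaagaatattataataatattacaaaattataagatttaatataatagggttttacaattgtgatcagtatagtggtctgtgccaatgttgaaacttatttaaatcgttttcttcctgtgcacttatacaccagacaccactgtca
fne X:12940010-12940209: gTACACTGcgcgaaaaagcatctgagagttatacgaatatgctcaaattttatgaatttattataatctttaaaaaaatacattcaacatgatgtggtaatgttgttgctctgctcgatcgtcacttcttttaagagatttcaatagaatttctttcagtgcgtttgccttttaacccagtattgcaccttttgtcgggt
Shaw 2L:3719695-3719894: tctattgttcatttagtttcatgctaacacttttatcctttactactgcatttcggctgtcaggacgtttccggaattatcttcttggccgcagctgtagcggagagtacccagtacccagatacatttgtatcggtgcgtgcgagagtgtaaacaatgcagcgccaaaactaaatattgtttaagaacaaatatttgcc
dlg1 X:11390927-11391126: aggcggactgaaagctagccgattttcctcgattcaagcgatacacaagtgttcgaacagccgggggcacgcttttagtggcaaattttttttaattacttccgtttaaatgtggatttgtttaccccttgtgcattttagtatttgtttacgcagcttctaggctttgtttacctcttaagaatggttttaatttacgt

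Binding was read from lists of peaks deposited by the authors on dm6. The reproducible list holds 5944 peaks and was made by the authors with a threshold on the irreproducible discovery rate over both replicates. The relaxed list, made from both replicates pooled, holds 30000 peaks, background among them by design. All 5944 reproducible summits are also in the relaxed list. Peak strength is the caller's signal, in units whose scale is not stated, and read depth is unknown. It had a median of 278.4 in the reproducible list, which starts at 149.5, and 61.3 in the relaxed list, which starts at 31.8. At the members, every relaxed peak with a signal of 149.5 or more was in the reproducible list. A reproducible peak need not have been found in each replicate, since 94.6% of that list had a summit within 100 bp in both. The replicates' own lists of 30000 peaks are not scaled to one another. A gene is called bound here if the distance from a summit to any of its annotated start sites was 500 bp or less, and its body runs from its first to its last annotated base.

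The members were bound at few start sites and held few summits in their bodies for genes of their length. In the reproducible list 2 of 33 members were bound (6.06%, exact Clopper-Pearson 95% interval 0.743 to 20.2%), elav and Nrx-1, against 10.9% of all protein-coding genes. In their bodies 7 of 33 held a summit (21.2%, interval 8.98 to 38.9%), against 11.9% of all protein-coding genes. The members are long, with a median body of 27.8 kb and a median of 2 start sites, where all protein-coding genes have 2.17 kb and 1. They were therefore also set beside protein-coding genes whose body length was within a factor of 0.8 of each member's, shorter or longer, called genes of like length here.

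Among genes of like length, 22.8% were bound and 47.3% held a summit in the body, which would have given 7.52 bound members and 15.6 with a summit in the body. The members' bodies held 8 reproducible summits, where the mean of genes of like length added up to 53.7, a ratio of 0.149. That mean is raised by genes with many summits, and the medians of the same genes added up to 25. Member by member, 15 held fewer summits than the median gene of like length, 14 as many and 4 more. Because whole animals were used, binding in a small share of the cells and no binding cannot be told apart where no peak was called. These are counts over genes in a single pair of lists, so they carry no test between conditions.

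**Figure D1:**
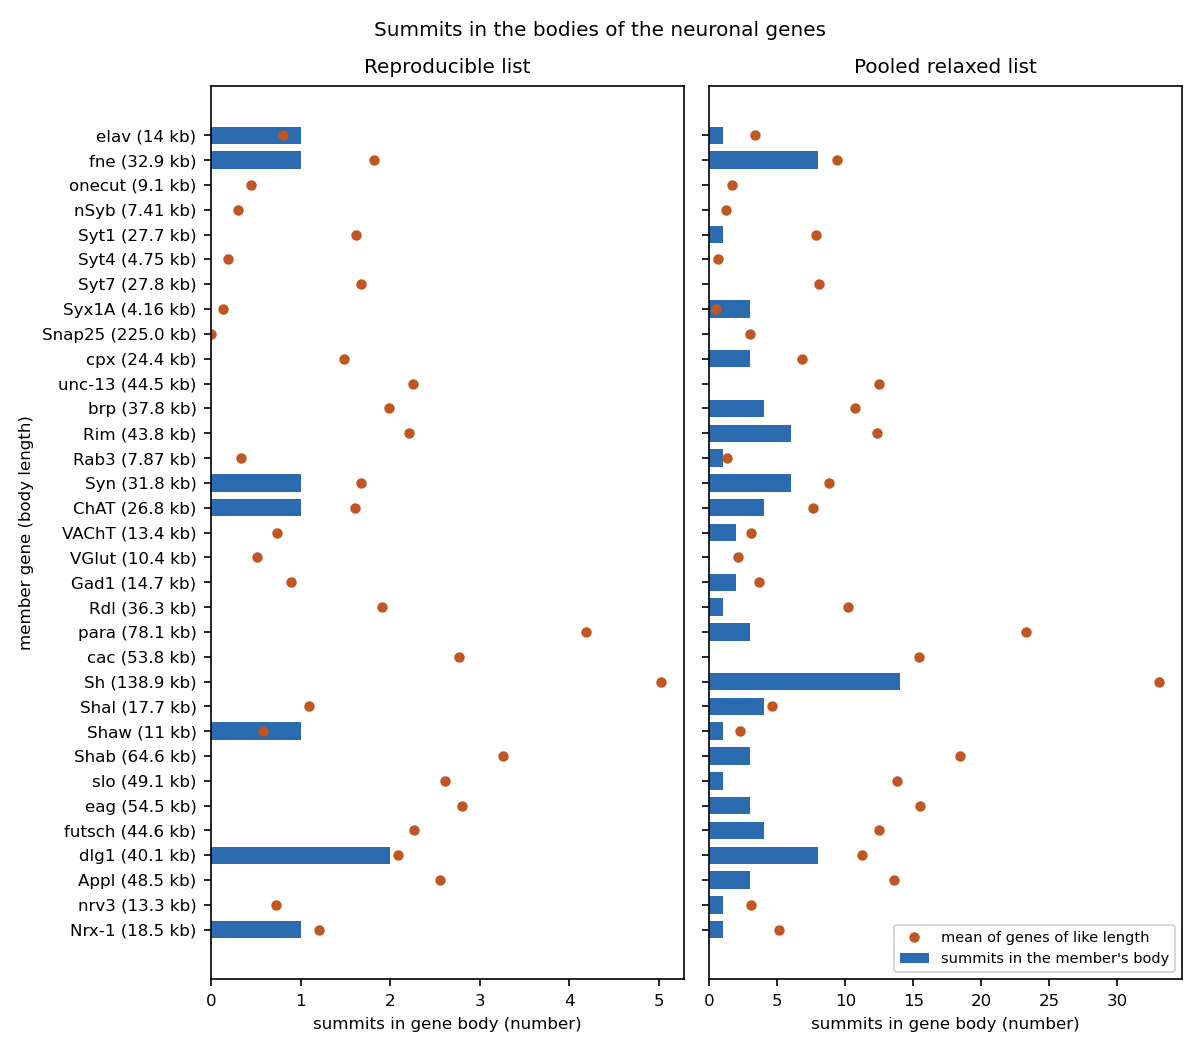
Summits in the body of each member (bars, number of summits), with body length in kb beside the gene name, for the reproducible list on the left and the relaxed list on the right; dots give the mean over genes of like length. The bars add up to 8 against 53.7 on the left and to 88 against 286.7 on the right, with Syx1A the only bar beyond its dot on the right.

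The gap was widest among the longer members. Of 8 members with bodies of 10 to 20 kb, 2 were bound and 3 held a summit in the body, near the 23.6% and 40.4% of other genes in that class. Of 8 members of 20 to 40 kb, 3 held a body summit, where 54.2% of other genes did, and none was bound, where 23.2% of other genes were. Of 10 members of 40 to 80 kb, only dlg1 held a body summit and none was bound, where 65.1% and 26.4% of other genes were called. The 5 members under 10 kb and the 2 over 80 kb, Snap25 among them, had neither. Of other genes, 11.4% were bound and 7.05% held a body summit at 2 to 5 kb. These shares were 15.6% and 21% at 5 to 10 kb, and 32.8% and 67.9% over 80 kb. With so few members in these classes, the absence of calls says little.

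**Figure D2:**
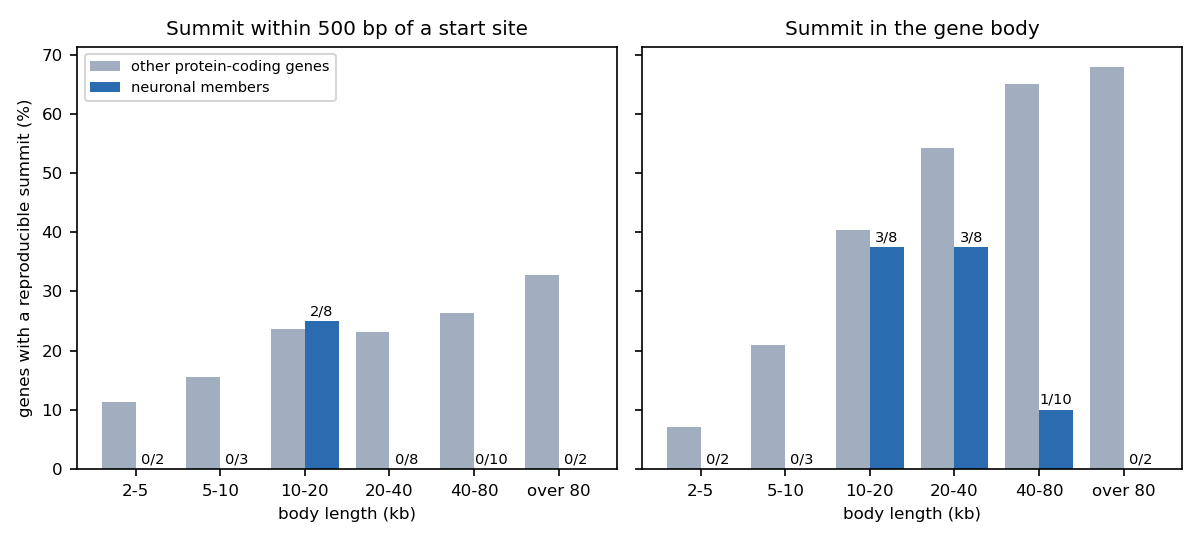
Share of genes (%) with a reproducible summit within 500 bp of a start site (left) or in the body (right), by body length in kb, for other protein-coding genes (grey) and members (blue), with members called over members in the class above each blue bar. The grey bars climb to 67.9% for bodies over 80 kb, while the blue ones stop at 3 of 8 from 10 to 40 kb and fall to 1 of 10 from 40 to 80 kb.

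Measured per length, the members' bodies held 0.633 reproducible summits per 100 kb (exact Poisson 95% interval 0.2733 to 1.247, from 8 summits in 1263.9 kb). All protein-coding bodies together held 4.3 per 100 kb (interval 4.168 to 4.44). Chromosome 4, a small and largely heterochromatic chromosome, carries 3 members (onecut, Syt7 and unc-13) and held only 7 reproducible and 46 relaxed summits in all. The Snap25 body spans 225.0 kb with no reproducible summit within 1164056 bp of its start site. Without these 4 members the density was 0.836 per 100 kb, and the 8 summits stood beside 49.4 from genes of like length. The distance from a start site to the nearest reproducible summit overlapped that of other genes, with a median of 14.5 kb for members (quartiles 3.43 and 27 kb) and 10.6 kb for all protein-coding genes (3.38 and 24.6 kb).

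The relaxed list gave the members more summits, still below their length. In it 14 of 33 members had a summit within 500 bp of a start site (42.4%, interval 25.5 to 60.8%), against 26.7% of all protein-coding genes and 61.1% of genes of like length. A summit in the body was found in 25 of 33 (75.8%, interval 57.7 to 88.9%), against 25.5% of all protein-coding genes and 82.1% of genes of like length. The share of members with any relaxed summit in the body was thus near that of genes of like length, 25 against 27.1 members, and the number of summits was not, with 88 against 286.7. Against the median gene of like length, 26 members held fewer, 5 as many and 2 more (Syx1A and Rab3). ChAT and VAChT have overlapping bodies and share 2 of these summits, so 86 are distinct, which is 6.8 per 100 kb, where all protein-coding bodies held 21.1. A peak in the relaxed list is not by itself evidence of binding.

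Among the RNA-binding and transcription factors that mark neurons in general, elav carried the strongest peak at any member. elav encodes the RNA-binding protein that directs neuronal splicing and 3′ end choice. Its peak at X:523281-523674 had a signal of 668.2 in replicate 1, 614.3 in replicate 2 and 1276.1 in the pooled list, rank 165 of 5944. The summit lay 274 bp upstream of an elav start site, a distance shared by lncRNA:enrr, and inside the annotated span of arg on the other strand, so it cannot be given to elav alone. A weaker peak in the first intron, at X:522434-522893, had 88.7 and 68.5 in the replicates and 169.3 pooled, and its summit, 562 bp from the start site, fell outside the window. Both elav peaks were thus present in both replicates, and they differed several-fold in strength. The intronic summit also lay inside arg and lncRNA:enrr, 562 bp from the start site of that RNA. It cannot be given to elav alone either.

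fne, a paralogue of elav, held 1 reproducible summit in an intron, at X:12939880-12940339, 1162 bp from its nearest start site. The signal was 83.8 in replicate 1, 95.7 in replicate 2 and 179.8 pooled, so this peak ranked 4888 and is among the weaker in the list. In the relaxed list fne held 8 body summits (10 in replicate 1 and 8 in replicate 2), close to the 9.39 of genes of like length. onecut, a homeodomain factor gene on chromosome 4, held none in any of the lists.

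The vesicle fusion and release genes had no reproducible summit in any of 8 bodies, where genes of like length gave 7.64. They are nSyb (synaptobrevin, the vesicle SNARE), Syx1A and Snap25 (the SNAREs of the plasma membrane), the calcium-binding synaptotagmins Syt1, Syt4 and Syt7, cpx (complexin, a clamp on fusion) and unc-13 (a priming factor). Of the 7.64, Syt7 gave 1.67 and unc-13 gave 2.25. Both lie on chromosome 4, which held only 7 reproducible and 46 relaxed summits, while their genes of like length came from all chromosomes. In the pooled relaxed list nSyb, Syt4, Syt7, Snap25 and unc-13 held 0 body summits, although the mean for genes of like length was 8.09 for Syt7 and 12.5 for unc-13. For Snap25 that group was a single gene. Replicate 1 alone listed 2 summits in the Snap25 body, while replicate 2 listed 0.

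Syx1A stood apart in the other direction. Its body of only 4.16 kb held 3 relaxed summits, where genes of like length had a mean of 0.497. The 3 peaks overlap their neighbours, so the summits may not be separate sites. All 3 summits also lie inside eIF4EHP and cannot be given to Syx1A alone. The strongest had signals of 40.6 in replicate 1, 25.3 in replicate 2 and 83.4 pooled, and the others were matched in replicate 2 only. The body lists of the replicates held 1 and 4 summits, so the number depends on the library. cpx held 3 relaxed summits, each matched in replicate 1 only, with a highest pooled signal of 51.2, and Syt1 held 1 of 44.1, where 6.85 and 7.88 were the means for their lengths.

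Of the active zone and vesicle proteins, Syn alone carried a reproducible peak, and it was the strongest inside any member's body. Syn encodes synapsin, which tethers synaptic vesicles. The peak at 3R:10213466-10213838 had a signal of 451.5 in replicate 1, 419.2 in replicate 2 and 867.8 pooled, rank 490. Its summit lay in an intron 22970 bp from the Syn start site and 652 bp from the start site of Timp, the metalloproteinase inhibitor gene nested in Syn on the other strand. Which of the genes the site serves cannot be told apart from its position.

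Rim, an active zone protein that links vesicles to calcium channels, came nearest to the reproducible list without reaching it. The highest of its 6 relaxed summits had 65.5 in replicate 1, 73.2 in replicate 2 and 147.0 pooled, against 149.5 for the weakest reproducible peak. brp, the scaffold of the active zone, held 4 relaxed summits with a highest pooled signal of 60.7, and Rab3, the vesicle GTPase, held 1 of 32.1, close to the bottom of the list. The means for genes of like length were 12.3 for Rim, 10.7 for brp and 1.33 for Rab3.

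Transmitter synthesis and loading was represented by the cholinergic locus, VGlut and Gad1, and only ChAT held a reproducible summit. ChAT makes acetylcholine, and VAChT, which loads it into vesicles, shares its start site. The ChAT peak at 3R:18719852-18720076 had 193.5 in replicate 1, 213.8 in replicate 2 and 407.5 pooled, rank 1806. It lay in the first intron, 14482 bp from the shared start site and past the end of VAChT, inside lncRNA:CR46265 and 360 bp from the start site of that RNA. VGlut, the vesicular glutamate transporter, held 0 pooled summits, though replicate 1 alone listed 3 and replicate 2 listed 0. Gad1, which makes GABA, held 2 pooled summits, of 39.6 and 39.1, each matched in replicate 1 only, and one of them lay in coding sequence.

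Rdl, a subunit of GABA-gated chloride channels and the only transmitter receptor among the members, held 1 relaxed summit with a signal of 38.2, matched in replicate 1 only, where genes of like length had a mean of 10.2.

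The sodium and calcium channel genes were nearly empty for their length. para, the voltage-gated sodium channel of fly neurons, spans 78.1 kb and held 0 reproducible and 3 relaxed summits, where genes of like length had means of 4.19 and 23.3. Its highest relaxed signal was 68.5, with 33.2 in replicate 1 and 36.6 in replicate 2. cac, the calcium channel that triggers release, spans 53.8 kb and held 0 pooled relaxed summits against a mean of 15.4, with 1 in replicate 1 and 0 in replicate 2.

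Of the 6 potassium channel genes, only Shaw held a reproducible summit, where genes of like length gave 15.4 over the group. The Shaw peak at 2L:3719565-3720024 had 125.7 in replicate 1, 61.4 in replicate 2 and 215.6 pooled, rank 4013. It lay in the first intron, 1541 bp from a start site, and the replicates differed more here than at the other member peaks found in both. Sh, the Shaker channel gene with a body of 138.9 kb, held 0 reproducible summits, where the mean for its length was 5.03. It did hold 14 relaxed summits (21 in replicate 1 and 15 in replicate 2) against a mean of 33.1. The highest of these had 61.8 in replicate 1, 62 in replicate 2 and 122.2 pooled.

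Shal held 4 relaxed summits, close to the mean of 4.62 for its length, and the highest had 59.7 in replicate 1, 48 in replicate 2 and 111.9 pooled. Shab, which makes a delayed rectifier, held 3 against 18.4. slo, the calcium-activated potassium channel, held 1 against 13.8, and eag held 3 against 15.5. No relaxed signal in these 3 genes was above 48.6.

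The remaining members shape the neuron and its contacts, and 2 of them held reproducible summits. dlg1, the scaffold protein of synapses and epithelial junctions, was the only member with 2 in its body. At X:11390797-11391256 the signal was 123.4 in replicate 1, 116.2 in replicate 2 and 244.6 pooled. At X:11384142-11384601 it was 100.9, 85 and 179.1. The summits lay in introns, 655 bp downstream and 508 bp upstream of dlg1 start sites, so both fell just outside the window. dlg1 is also used outside the nervous system, and its 2 reproducible summits were close to the mean of 2.09 for its length. Its 8 relaxed summits were below the mean of 11.2.

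Nrx-1, the presynaptic adhesion protein neurexin, was the other bound member, and its peak rests on replicate 2. The peak at 3R:22469217-22469361 had 175.5 in replicate 2 and 316.9 pooled, while replicate 1 listed no summit anywhere in the gene. It lay in a non-coding exon 142 bp from a start site. With the strongest peaks of replicate 1 in place of the reproducible list 1 member was bound, elav, and with a window of 250 bp 1 was, Nrx-1. futsch, a microtubule-associated protein of axons, held 4 relaxed summits and had 3 within 500 bp of start sites, the most of any member. The highest, 277 bp from a start site, had 54.8 in replicate 1, 63.3 in replicate 2 and 110.3 pooled. nrv3, a beta subunit of the sodium pump, held 1 relaxed summit of 74.1, and Appl, the fly amyloid precursor protein, held 3 with a highest signal of 41.3 against a mean of 13.6 for its length.

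**Figure D3:**
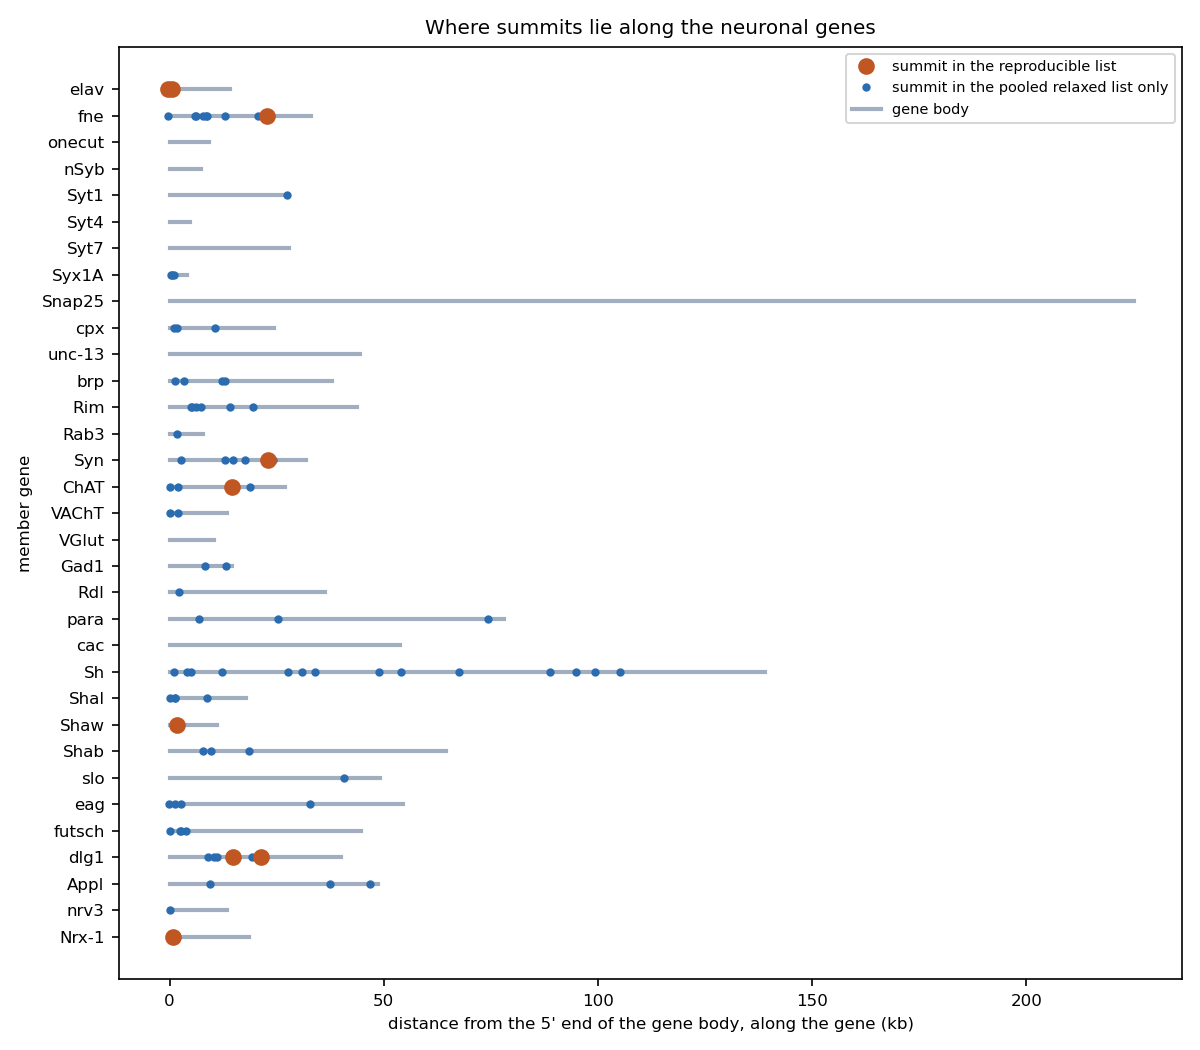
Position of summits along each member, as distance in kb from the 5′ end of the body, with the body as a grey line, reproducible summits as large orange dots and summits of the relaxed list only as small blue dots. The body of Snap25 has no dot over 225.0 kb, whereas Sh has 14 blue dots spread along 138.9 kb.

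In all, 9 distinct reproducible summits lay in member bodies or near their start sites, 3 in a first intron, 4 in introns that were not the first in every transcript, 1 in a non-coding exon and 1 upstream. None lay in coding sequence. Their median signal was 244.6 (quartiles 179.8 and 407.5), beside 278.4 (196.0 and 471.1) for the whole list. A summit within 100 bp was found in both replicates for 8 of 9, where the list as a whole had 94.6%, and the list was derived from these same replicates. Of the 89 distinct relaxed summits at members, 34 were matched in both replicates (38.2%), 51 in a single replicate and 4 in neither, where the relaxed list as a whole had 52.6% in both. Their median signal was 44.5, beside 61.3, so the relaxed summits at members were on the weak side of a list that contains background.

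**Figure D4:**
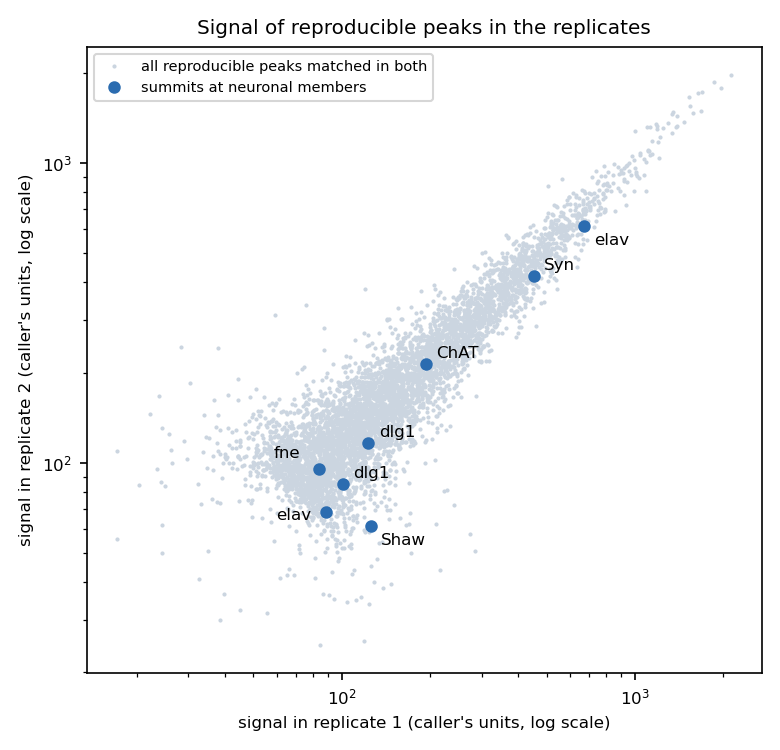
Signal of reproducible peaks in replicate 2 against replicate 1, both on log axes in the caller's units, for peaks matched in both (grey) and for the 8 summits at members that had a match in both (blue, with gene names). elav at 668.2 and 614.3 and Syn at 451.5 and 419.2 lie in the upper part of the cloud, and Shaw at 125.7 and 61.4 lies at its lower edge.

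Short words, among them CAGTGTA and CAGTGCA, which earlier results showed at summits of this dataset, were counted in the 200 bp around the 9 member summits, on both strands. CAGTGTA was present in 1, that of fne, and CAGTGCA in 1, that of ChAT, against 7.45% and 10.6% of all reproducible summits, and 9 summits are too few to compare such shares. CACTGAG was present in none, against 6.71% of all. The GAGA element, GAGAGAG, was also in none, against 4.95%, as was the core of the DNA replication-related element, TATCGATA, against 0.707%. CAGTGTA and CAGTGCA were not rare in the member genes themselves, with 21.8 matches per 100 kb of body against 25.8 over all protein-coding bodies. They occurred within 500 bp of a start site in 11 of 33 members (33.3%), against 25.4% of all protein-coding genes. These shares are not directly comparable, because members have a median of 2 start sites against 1, which gives more sequence to search. A match is a description of the letters only, and the body GC content differed as well, at 40.3% for members and 42.9% for all protein-coding genes.

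Other neuronal genes were listed by function for comparison, 157 in all, of which 156 were found in the gene models. Of these 22 were bound in the reproducible list (14.1%, interval 9.05 to 20.6%). The interval includes the 10.9% of all protein-coding genes. The count was below the 31.3 genes that the shares among genes of like length add up to. Their bodies held 78 reproducible summits against 203.1 from genes of like length, a ratio of 0.384 beside 0.149 for the members, and no test was made of that difference. Unlike a member, each of these genes was itself counted among its genes of like length. In 3 of the 8 roles no start site was bound. None of 25 further release machinery genes was bound (interval up to 13.7%), none of 12 transmitter synthesis and transport genes (up to 26.5%) and none of 37 transmitter receptor genes (up to 9.49%). Genes of like length gave 4.79, 1.86 and 7.54 bound genes. For release machinery and transmitter synthesis the interval includes the 10.9% of all protein-coding genes. The bodies of these 3 roles held 1, 0 and 7 reproducible summits, where genes of like length gave 21.3, 4.85 and 49.3. On chromosome 4, Cadps gave 2.12 of the 21.3 and mGluR gave 0.696 of the 49.3. stnA and stnB, among the 25 release machinery genes, have the same body, and each gave 1.48.

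The bound genes among the others had roles in adhesion, RNA binding, transcription, peptide signalling, channels and the cytoskeleton. Of 11 neuronal RNA-binding and transcription factor genes 5 were bound, where genes of like length gave 2.57. They were Syp with a pooled signal of 915.1 (452.3 in replicate 1 and 463.2 in replicate 2), sqz with 562.2, Rbp9, a further paralogue of elav, with 348.0, dati with 219.0 and nerfin-1 with 149.7. dati and nerfin-1 had no match in replicate 2. Of 16 adhesion and synapse organiser genes 5 were bound, close to the 4.59 from genes of like length. They were tutl (899.0), sdk (715.9), CadN (347.0), Ten-a (232.9) and Nrg (200.1). Of 21 neuropeptide and processing genes 4 were bound, where genes of like length gave 2.45, led by amon, the prohormone convertase, with 571.3 in replicate 1, 599.1 in replicate 2 and 1176.0 pooled, then sNPF (378.8), Nplp1 (346.4, with no match in replicate 1) and Pal2 (260.2).

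Of 26 further ion channel genes and their subunits 5 were bound, near the 5.63 from genes of like length. They were Hk (436.1), which encodes the beta subunit of the Shaker channel, NaCP60E (352.1), Irk1 (287.7), Teh4 (254.1) and Ih (162.4). The NaCP60E summit lay 25 bp from the start site of RpL41, and that of Irk1 was 231 bp from its own start site and from that of CG46310, so neither site can be given to the channel gene alone. The same limit holds for Teh4, Pal2 and jvl, whose bound summits lay inside CG18675, St3 and smp-30. Of 8 axonal cytoskeleton and transport genes 3 were bound, where genes of like length gave 1.9, namely jvl (354.0), shot (171.2) and milt (152.7). In their bodies these groups held fewer reproducible summits than genes of like length, with 32 against 51.9 for adhesion, 10 against 17 for RNA-binding and transcription factors, 1 against 6.14 for neuropeptides, 19 against 37.3 for channels and 8 against 15.3 for the cytoskeleton. Of the 17 for RNA-binding and transcription factors, bru3 gave 4.5, and dati, on chromosome 4, gave 1.27. The most reproducible body summits were in Ten-a with 9, Syp with 6 and Ca-beta with 5, genes picked for that number. Their means for like length, with each gene itself included, were 4.5, 2.77 and 2.52. bru3, of 281.5 kb beside 291.5 kb for Ten-a, held 0 summits and had the same mean of 4.5. Ten-a and bru3 each counted among the other's genes of like length, and few genes are so long. The mean of 4.5 is therefore no separate measure for either gene. CadN, Fas2, KCNQ and caps held 4 each. No member held more than 2.

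**Figure D5:**
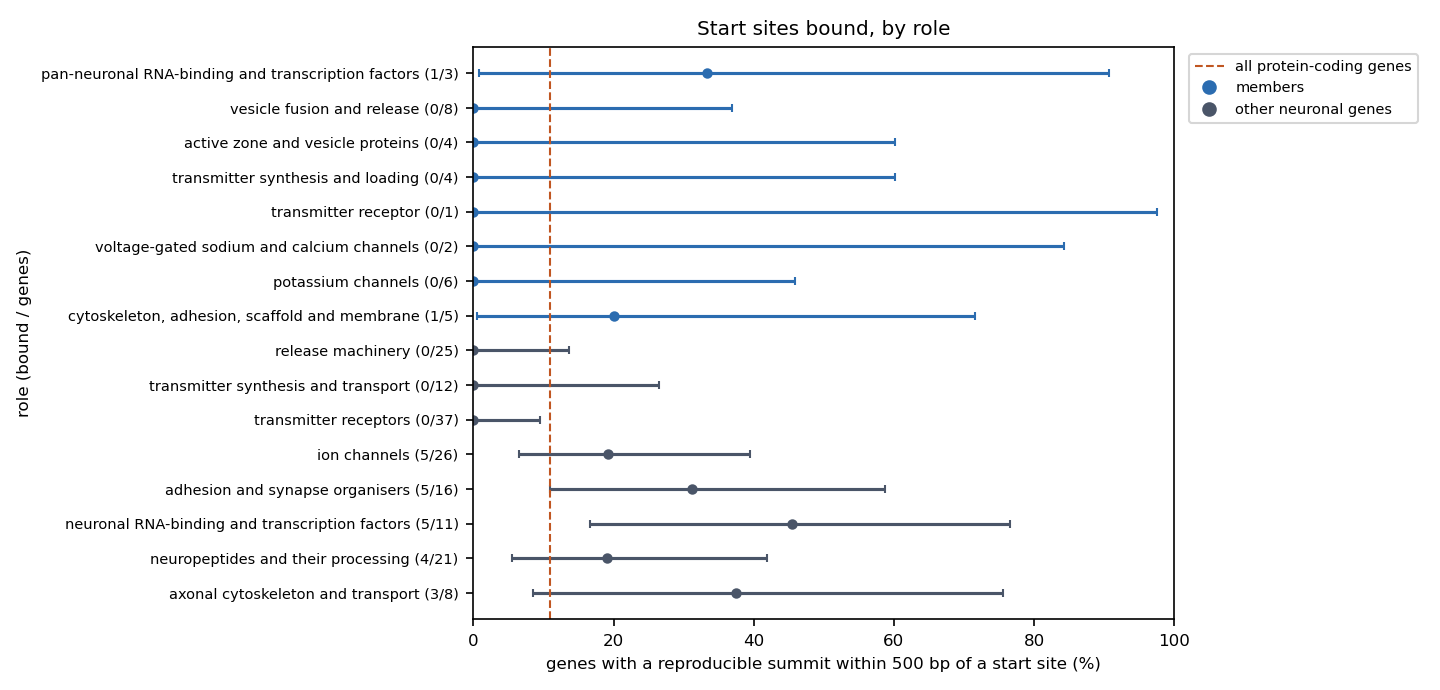
Share of genes (%) with a reproducible summit within 500 bp of a start site, by role, for members (blue) and other neuronal genes (grey), with exact Clopper-Pearson 95% intervals as bars and the 10.9% of all protein-coding genes as a dashed line. The 3 grey roles at 0% are release machinery, transmitter synthesis and transport, and transmitter receptors, and the intervals of the member roles are wide because each holds 1 to 8 genes.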

How the data were processed

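Whole prepupae of 1 group with 2 biological replicates were analysed through the authors' deposited dm6 peak lists. Each peak carries the caller's signal value as deposited by the authors. Per the deposited list of files, replicate lists came from a replicate alignment and a control alignment, a pooled list from both replicates, and the reproducible list from these by an IDR threshold. For aligner, caller, versions and threshold, the entry is: not given in the sources used here. Lists on dm3 and the control were not used here. Read depth is unknown, and intervals cover counting error over genes only.

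Summits were placed 1-based on Ensembl 115 gene models (FlyBase 6.54) of X, 2L, 2R, 3L, 3R and 4, transposable elements left out. Genes of like length had at least 0.8 times a member's body length and at most its length divided by 0.8, members left out, and each member weighed equally. The other neuronal genes were not left out, so each of them counted among its own genes of like length. Summits within 100 bp counted as matched between lists. Python 3.11.15, NumPy 2.4.6, SciPy 1.17.1 and matplotlib 3.10.9 were used. Counting was tested on simulated data. A first version with a single random draw missed its tolerance, so the test averages 8 draws, among them that one.

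Members and lists were chosen with earlier results of these data known, and the CAGTG words came from those results. The rule named every member, with replicate values for bound members, the 10 strongest member summits and members with the most body summits, and of the other neuronal genes those bound and the 5 with the most body summits, ties included. Examples beyond it were chosen after their values were seen. Of the other genes 3 matched by synonym and TEH1 was not matched.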

Additional observations from a re-analysis of the deposited data

How the results depend on the processing

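Of 56 alternatives 44 left a count within 1.5 times its value and 12 did not. The number of bound members, 2, was 1 with a window of 250 bp (Nrx-1, background 7.64%), 0 where only peaks whose interval spans a start site counted, and 1 to 2 with either replicate's strongest peaks alone, where elav remained without replicate 2. It was 3 at 1000 bp (background 14%). For other neuronal genes 22 became 14 at 250 bp, 9 by interval and 13 with only the stronger peaks, split at the median signal, and 24 to 25 with single replicates. With the stronger peaks, members with a body summit fell from 7 to 3 (Syn, ChAT and Nrx-1) and their summits from 8 to 3, while single replicates gave 6 for the members and 6 to 7 summits. In the relaxed list the stronger peaks gave 6 bound members, 14 with a body summit and 27 body summits, and single replicates gave 13 to 16, 21 to 27 and 78 to 109. With motif windows of 100 bp no member summit held a CAGTG word. The ratio of member body summits to genes of like length lay between 0.114 and 0.175 over 7 settings, and that of bound members between 0.116 and 0.411. Leaving out chromosome 4 and Snap25 was added after the data were seen. In every setting with such a ratio members held fewer summits than genes of like length. The causes of these changes were not tested. No paired analysis was possible because there is only 1 group. Depth is unknown, and 2 libraries limit every value.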

Other observations

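The summits nearest to the members' start sites lay mostly outside the window. At dlg1 the closest reproducible summit was 508 bp away, at Syn 1032 bp, at fne 1162 bp, at Shaw 1541 bp, at eag 2265 bp and at Syt1 2795 bp. With 2 kb added on each side of the bodies, 11 reproducible summits were counted gene by gene (10 distinct), against 63 from genes of like length. By chromosome, 3 of 9 members on the X and 3 of 9 on 3R held a reproducible summit in the body, as did 1 of 4 on 2L, and 0 of 6 on 3L, 0 of 2 on 2R and 0 of 3 on chromosome 4. With so few members per chromosome these shares are values only.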
